A study of Mus musculus with 6 samples.

Results

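The aminoacyl-tRNA synthetases were taken from the expression table by symbol: every gene written as 1 amino acid letter followed by ars, with or without an ending of 1, 2, 3 or l2, together with Eprs, Farsa and Farsb. This gave 38 genes of the 16880 listed, and all 38 encode synthetases. They comprised 20 cytosolic enzymes or subunits, 17 mitochondrial enzymes whose symbols end in 2, and Tarsl2, a threonyl-tRNA synthetase-like gene whose symbol also ends in 2 but whose product is known from the cytoplasm and nucleus, so it was described on its own. RNA was sequenced from ATDC5, a mouse chondrogenic cell line, in 6 libraries. Cells of all libraries received 10 ng/mL IL-1β, an inflammatory cytokine. The 3 IL libraries had IL-1β alone, and the 3 ILN libraries had IL-1β plus 10 μmol/L NP-G2-044, a small molecule inhibitor of the actin-bundling protein fascin (FSCN1), for 24 h by the study's methods. The titles name NP-G2-044 and the treatment field NP-G2-047, and the paper describes the cells as mouse chondrocytes. The methods also name a DMSO group, but the 6 libraries hold only IL and ILN. Each value thus sets ILN against IL, and no untreated level is known.

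Aminoacyl-tRNA synthetases join each amino acid to its matching tRNA, the step that sets which amino acid a tRNA carries. Most amino acids have one enzyme for cytosolic translation and a separate one, encoded by another nuclear gene, that is imported into mitochondria to serve the few proteins made there. Several cytosolic enzymes sit together in the multisynthetase complex, held by scaffold proteins, while the others act on their own. The enzymes fall into classes I and II, which have unrelated catalytic folds. Many cytosolic synthetase genes are known to be induced by ATF4, the transcription factor of the integrated stress response, which is made when eIF2 is phosphorylated and also drives amino acid synthesis and transport.

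Library totals were 16615824 to 16878164 estimated reads in IL and 17529844 to 17735860 in ILN. The members had between 436 and 62642 reads over the 3 libraries of a group, so that all 38 passed the filter on low counts and counting error was small for most. Replicates agreed closely, with a common biological coefficient of variation of 2.33%. Each pair of libraries within a group differed by more than sampling noise, and no library stood apart. Nothing in the labels says that replicates were separate cultures, although the methods call them biological, so p-values measure the spread between these libraries. Of 14 chondrocyte markers, 12 were under 1 TPM in every library, and Acan, Col9a1, Col9a2, Matn1, Hapln1 and Snorc were at 0 or not listed, so most matrix genes of the labelled cell type were at or near 0. The other 2 markers were Sox9, at 6.44 ± 0.675 TPM in IL and 11.4 ± 0.0569 TPM in ILN, and Col11a2, at 5.01 ± 0.229 and 3.43 ± 0.184 TPM (SD, n = 3 each). The 14 summed to 11.7 to 12.2 TPM in IL and 14.86 to 15.05 TPM in ILN. The 8 fibroblast markers summed to 1106 to 1151 TPM in IL and 337 to 351 TPM in ILN, nearly all of it Col1a2, while Pdgfra of the same list was higher in ILN (2.36 ± 0.286 and 8.69 ± 0.298 TPM). Those of macrophages summed to 23.8 to 24.6 TPM in IL and 129 to 140.0 TPM in ILN, with Ptprc and Adgre1 at 0 or not listed. Nearly all of the sum in ILN was Cd68, whose mean rose from 12.4 to 129.9 TPM. Cd14 of the same list was lower in ILN (11.4 ± 1.62 and 4.89 ± 0.341 TPM). The part of these shifts in the results on synthetases was not tested. In bulk RNA, fewer cells of a type and less RNA per cell cannot be told apart.

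The first question was which synthetase genes differed between ILN and IL. Cytosolic synthetases were mostly higher with NP-G2-044, several of them more than 3-fold. Mitochondrial synthetases moved in both directions, none of them by as much as 2-fold. Of the 20 cytosolic genes, 18 rose and 2 fell when a gene was called at an adjusted p under 0.05 (edgeR, quasi-likelihood test). The same call was made for 40.2% (higher) and 39.8% (lower) of all 11983 genes tested. A stricter edgeR test, against a fold change of 2, called 10 cytosolic genes higher and 0 lower, beside 4.71% and 7.59% of all tested genes. With the study's second cutoff, a log2 fold change above 1 in size, 12 of the 20 cytosolic genes were higher and 0 lower, where 6.48% of all tested genes were higher and 10.1% lower. The median log2 fold change of ILN over IL was 1.10 for the cytosolic genes and 0.00 for all tested genes. Among the 17 mitochondrial genes, 5 rose, 5 fell and 7 did not pass the test, none passed both cutoffs, and the median was −0.06. With a filter of at least 10 CPM in 3 libraries, 8 of them were called lower in place of 5. Mitochondrial genes called in either direction were thus 10 of 17, beside 80% of all tested genes. In 17 cytosolic genes every ILN library was above every IL library, in 2 every ILN library was below, and in 1 the groups overlapped, while for all tested genes the first held for 38% and the second for 41.4%. Fold changes spread more widely among cytosolic genes (SD over genes 0.776 on the log2 scale) than among mitochondrial ones (SD 0.421).

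**Figure D1:**
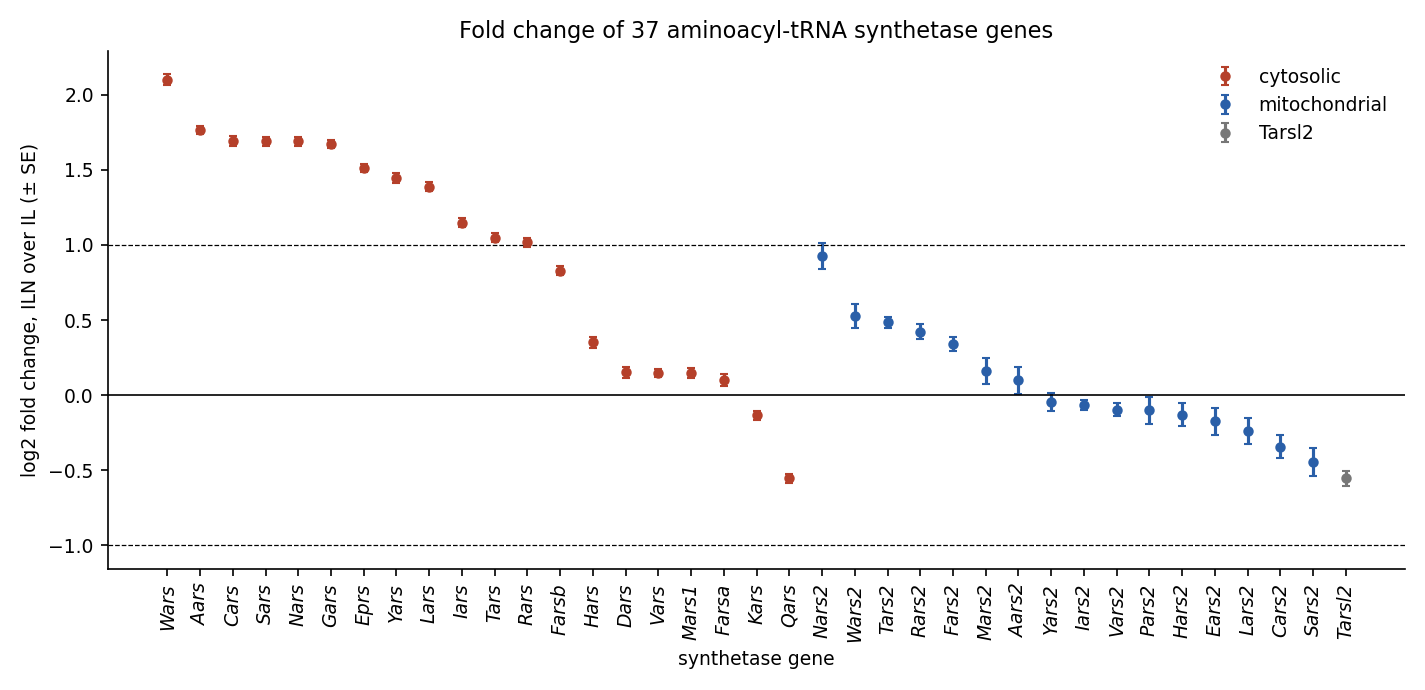
Log2 fold change of ILN over IL with its standard error for 37 synthetase genes, sorted within the cytosolic (red) and mitochondrial (blue) genes, with Tarsl2 in grey and dashed lines at the cutoffs of 1 and −1. The 12 cytosolic genes from Wars to Rars lie above 1, and no mitochondrial gene shown lies beyond either line.

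Among enzymes outside the multisynthetase complex, Wars (Entrez gene 22375), which charges tryptophan and is also known as an interferon-inducible gene, rose the most. It was at 36.4, 37.3 and 39.6 TPM in IL and at 156, 160.4 and 159 TPM in ILN, a log2 fold change of 2.10 (SE 0.035, adjusted p = 1.77e-46) and a fold of 4.29. Wars thus went from the least abundant cytosolic synthetase with IL-1β to the middle of the range. Aars (Entrez gene 234734), the alanine enzyme, measured 163, 164 and 161 TPM in IL and 562, 536 and 521 TPM in ILN, a log2 fold change of 1.76 (SE 0.028, adjusted p = 2.1e-47). GENCODE places 1326 bases of its exons on those of Exosc6 on the same strand, and Exosc6 itself had a log2 fold change of −0.27. The enzymes for cysteine, serine, asparagine and glycine followed with nearly equal changes. Cars had 39.8, 39.8 and 42.2 TPM with IL-1β alone and 131, 131 and 133 TPM with the inhibitor, a log2 fold change of 1.69 (SE 0.0351, adjusted p = 5.24e-42). Sars, which also loads serine onto the tRNA for selenocysteine, went from 81.3, 81.4 and 83.2 TPM to 264, 261 and 251 TPM, a log2 fold change of 1.69 (SE 0.0292, adjusted p = 9.93e-46). For Nars, the values were 91.1, 95.5 and 92.1 TPM in IL and 292, 297 and 289.9 TPM in ILN, a log2 fold change of 1.69 (SE 0.0297, adjusted p = 2.28e-45). These 3 enzymes stood within 0.01 of each other on the log2 scale, well inside their standard errors. Gars (Entrez gene 353172), whose gene supplies glycyl-tRNA synthetase to both cytosol and mitochondria, had 209, 212 and 209 TPM in IL and 657, 657 and 656 TPM in ILN. Its log2 fold change was 1.67 (SE 0.0276, adjusted p = 1.28e-46), and it was the most abundant of all 38 genes in ILN. The tyrosine enzyme Yars was measured at 59.97, 65.2 and 63.8 TPM against 169.8, 169.9 and 164 TPM, a log2 fold change of 1.45 (SE 0.033, adjusted p = 3.64e-40). Tars, for threonine, had 92.2, 91.2 and 90.7 TPM and 184, 186 and 184 TPM, a log2 fold change of 1.05 (SE 0.0302, adjusted p = 1.94e-35). For each of these 8 genes all 3 ILN libraries lay far above all 3 IL libraries.

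The 8 enzymes of the multisynthetase complex did not move together. Eprs (Entrez gene 107508), a single protein that charges both glutamate and proline, rose the most of them, from 120.1, 128 and 128 TPM in IL to 359, 354 and 336 TPM in ILN, a log2 fold change of 1.51 (SE 0.0285, adjusted p = 5.7e-44). Lars, the leucine enzyme and a known leucine sensor of the mTORC1 pathway, was at 53.4, 57.5 and 57.4 TPM in IL and 146, 145 and 139.9 TPM in ILN, a log2 fold change of 1.39 (SE 0.0308, adjusted p = 1.01e-40). Iars, for isoleucine, had 156, 169 and 169.9 TPM and 369, 349 and 352 TPM, a log2 fold change of 1.15 (SE 0.0284, adjusted p = 1.69e-38). Rars, for arginine, only just passed the fold cutoff, with 140.1, 149 and 148 TPM in IL, 284, 298 and 285 TPM in ILN and a log2 fold change of 1.02 (SE 0.0301, adjusted p = 5.61e-35). The log2 fold change of Rars was 0.998 without replicate 2 of ILN and 0.9999 without replicate 1 of IL, so that 11 cytosolic genes passed both cutoffs in those cases. The other 4 enzymes of the complex rose slightly or fell. Dars, for aspartate, had 88.9, 87.8 and 86.1 TPM in IL and 93.9, 97.1 and 94.6 TPM in ILN, a log2 fold change of 0.15 (SE 0.0344, adjusted p = 9.33e-05). Mars1, for methionine, had 78.9, 82.5 and 86.3 TPM and 89.5, 89.97 and 87.1 TPM, a log2 fold change of 0.15 (SE 0.0324, adjusted p = 6.38e-05), with the lowest ILN library only just above the highest IL library. Exons of Mars1 overlap those of Ddit3 on the opposite strand over 68 bases. The log2 fold change of Ddit3 was 4.05. Its part in the value of Mars1 was not tested. Both of the cytosolic genes that fell belong to the complex. Kars (Entrez gene 85305), whose gene also supplies the mitochondrial lysine enzyme, was the most abundant synthetase in IL, at 396, 395 and 383 TPM, and fell slightly to 354, 347 and 334 TPM, a log2 fold change of −0.14 (SE 0.0281, adjusted p = 2.23e-05). Qars (Entrez gene 97541), the only glutaminyl-tRNA synthetase of mammals and without a mitochondrial counterpart, fell from 155, 159.6 and 159.9 TPM to 108, 105 and 103 TPM, a log2 fold change of −0.55 (SE 0.0301, adjusted p = 3.55e-23). It was the 5th most abundant synthetase in IL and the 16th in ILN. Over the complex the median log2 fold change was 0.59, with 4 of 8 genes past both cutoffs, against 1.56 and 8 of 12 for cytosolic genes outside it. Past both cutoffs, 6.48% of all tested genes were higher and 10.1% lower. By fold class, the medians were 1.15 for 9 class I genes and 0.94 for 10 class II genes, leaving out Eprs, which has both. No test was made of these differences between groups of genes.

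The remaining cytosolic genes outside the complex rose by less. Phenylalanyl-tRNA synthetase is built from 2 kinds of subunit, and their genes differed in response. Farsb, the beta subunit, went from 89.3, 91 and 92.6 TPM in IL to 165, 155 and 153 TPM in ILN, a log2 fold change of 0.83 (SE 0.0328, adjusted p = 3.27e-29). Farsa, the alpha subunit, had 89.6, 97 and 90.4 TPM and 95.4, 97.6 and 97.8 TPM, a log2 fold change of 0.10 (SE 0.0369, adjusted p = 0.0117), and was the single cytosolic gene whose groups overlapped. The log2 ratio of Farsb over Farsa, taken in TPM within a library, was −0.00468, −0.09 and 0.03 in IL and 0.79, 0.67 and 0.65 in ILN. It rose by 0.72, from −0.02 ± 0.064 to 0.70 ± 0.0764 (SD, n = 3 each; two-sided exact permutation test, p = 0.1, the smallest that 3 against 3 allows). Hars, for histidine, increased from 77.3, 76.9 and 79.1 TPM to 97, 97.5 and 96.9 TPM, a log2 fold change of 0.35 (SE 0.0357, adjusted p = 8e-13). Its exons share 195 bases with those of Hars2 on the opposite strand. Vars, for valine, had 139, 142 and 137 TPM in IL and 153, 149 and 148 TPM in ILN, a log2 fold change of 0.15 (SE 0.0277, adjusted p = 3.9e-06). Farsa lost its call in DESeq2 (adjusted p = 0.0652) and without replicate 3 of IL (adjusted p = 0.0684 in edgeR). The call was also lost in edgeR with at least 10 CPM in 3 libraries (adjusted p = 0.0605). It was lost in limma on log2(TPM + 0.1) and log2(TPM + 1) as well (adjusted p = 0.0913 and 0.0921). The log2 fold change of Farsa ran from 0.08 to 0.13 with each library left out.

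The promoters of the members were searched for the letters TGATGNAA or, on the other strand, TTNCATCA, the core of the C/EBP-ATF response element (CARE) that ATF4 is known to bind. RefSeq windows of GRCm38.p6, the same build as the mm10 named in the submitters' notes, run from 250 bases before to 50 after a transcript start. They were found for 28 members, 13 cytosolic and 14 mitochondrial ones and Tarsl2. Among those without an entry are Cars, Hars, Hars2, Lars, Nars, Pars2, Rars, Vars and Wars. The letters were present in 5 of the 13 cytosolic genes and in 0 of the 14 mitochondrial ones, and in 3.97% of all 32851 windows and 2.70% of the 9635 tested genes with a window. All 5 genes, Aars, Gars, Iars, Tars and Yars, are among the 7 cytosolic genes with a window that were past both cutoffs, the other 2 being Eprs and Sars. In 6 cytosolic genes that were not past both cutoffs the letters were not found. At a share of 2.70%, most sets as small as these 6 or the 14 mitochondrial genes would hold no match. Cars, Lars, Nars, Rars and Wars were past both cutoffs as well but had no window to search. Whether ATF4 had a part in any of these changes was not tested. A match is a run of letters and not evidence of binding. A match in each of these 5 genes is shown 5′ to 3′ on the strand of the gene, with the matched letters in capitals, so that its position next to the start can be seen. For each, the base at which the capitals begin is counted from the transcript start, with negative numbers before it.
Aars, chr8:111033840-111033869, plus strand, from base 10: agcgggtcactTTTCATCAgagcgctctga
Gars, chr6:55037931-55038000, plus strand, from base −30: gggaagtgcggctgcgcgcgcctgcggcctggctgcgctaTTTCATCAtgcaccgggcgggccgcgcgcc
Iars, chr13:49682126-49682155, plus strand, from base 8: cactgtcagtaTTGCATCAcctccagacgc
Tars, chr15:11399659-11399684, minus strand, from base −15: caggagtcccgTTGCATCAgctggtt
Yars, chr4:129189895-129189924, plus strand, from base 4: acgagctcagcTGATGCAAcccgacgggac
The letters read TTGCATCA in Iars and Tars, which is TGATGCAA on the other strand, and TGATGCAA directly in Yars. A second motif, GCGCA, any base and GCGC on either strand, the core of the element bound by NRF1, a regulator of nuclear genes for mitochondrial proteins, was found in 3 of 13 cytosolic members (Farsb, Kars and Tars), in 2 of 14 mitochondrial members (Iars2 and Mars2) and in 12.1% of tested genes. No match of one motif overlapped a match of the other.

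**Figure D2:**
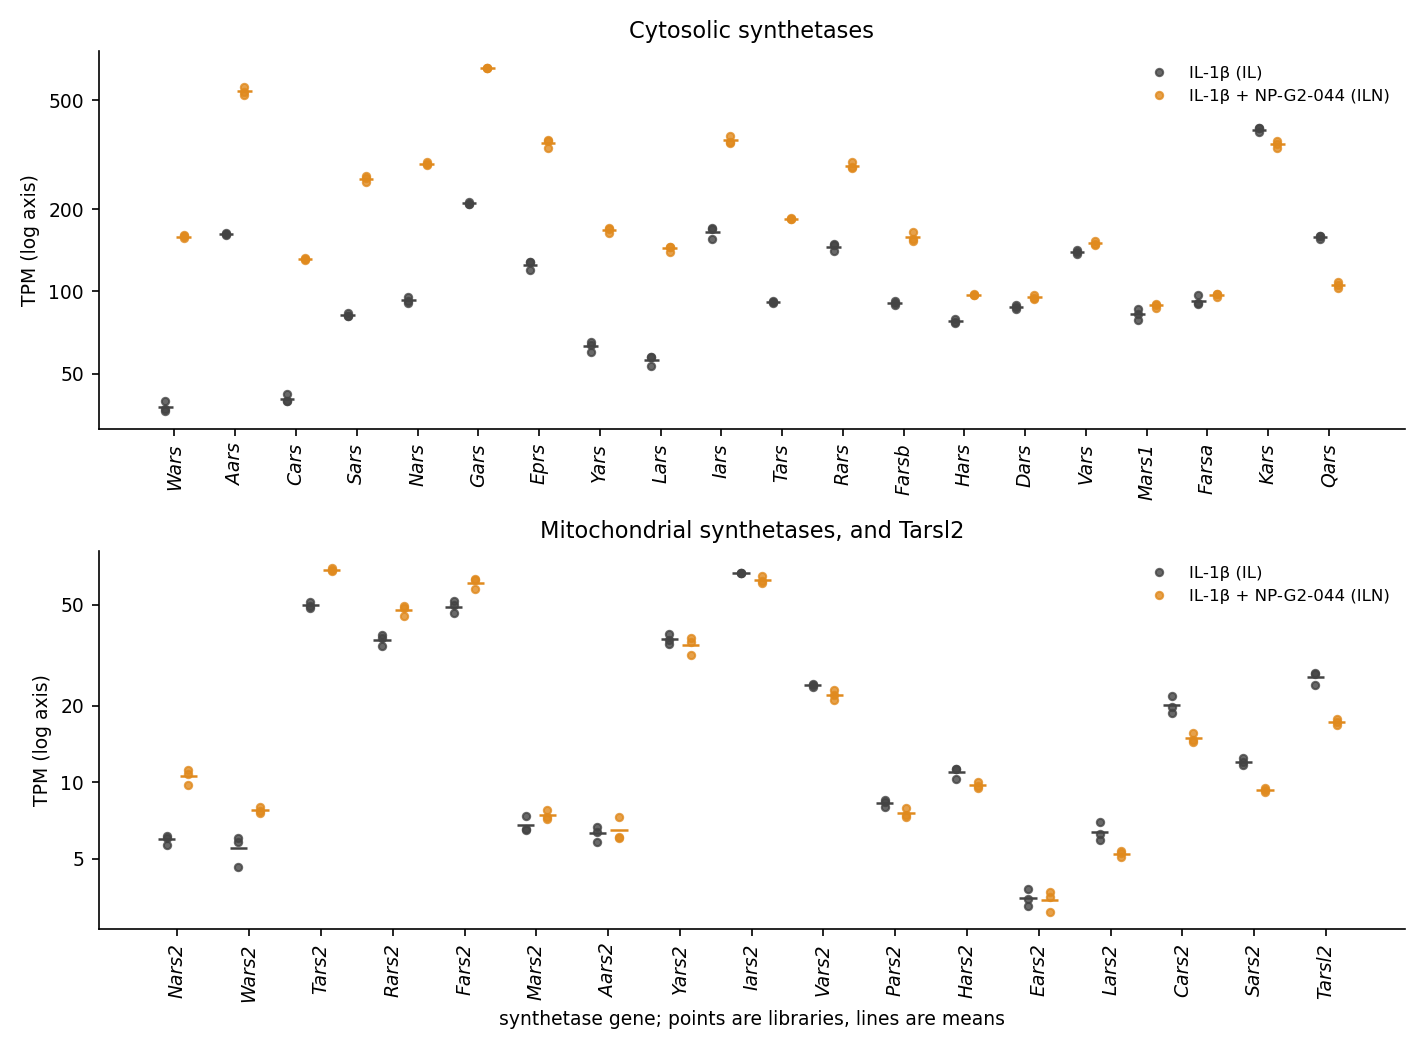
TPM of 37 synthetase genes in each of the 6 libraries on a log axis, IL in grey and ILN in orange, with group means as lines; cytosolic genes above, mitochondrial genes and Tarsl2 below. Cytosolic means run from 37.8 to 391.0 TPM in IL and from 88.9 to 656.4 TPM in ILN, while mitochondrial means stay between 3.44 and 68.6 TPM in both groups.

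Mitochondrial synthetases had a lower median level than the cytosolic ones in both groups. The ranges overlapped in IL, where Iars2 was above Yars, Lars, Cars and Wars, but not in ILN. In TPM, which is per length, mitochondrial means ran from 3.52 (Ears2) to 66.9 (Iars2) in IL, with a median of 12.1. In ILN they ran from 3.44 (Ears2) to 68.6 (Tars2), with a median of 9.76. The cytosolic means had a median of 91.8 TPM in IL and 163 TPM in ILN. Nars2 (Entrez gene 244141), the mitochondrial asparagine enzyme, rose the most, from 6.17, 5.68 and 6.05 TPM in IL to 10.8, 11.2 and 9.78 TPM in ILN, a log2 fold change of 0.93 (SE 0.0878, adjusted p = 7.59e-14). Its exons share 284 bases with those of C230038L03Rik on the opposite strand. Wars2, for tryptophan, had 4.65, 6.05 and 5.81 TPM and 8.03, 7.56 and 7.72 TPM, a log2 fold change of 0.53 (SE 0.0787, adjusted p = 4.69e-08). Tars2, for threonine, was measured at 48.8, 49.6 and 51.3 TPM in IL and 67.7, 69.8 and 68.3 TPM in ILN, a log2 fold change of 0.49 (SE 0.0376, adjusted p = 5.4e-17). All libraries of ILN exceeded all libraries of IL for these 3 genes and for the 2 that follow. The same held for 38% of all tested genes. Rars2, for arginine, increased from 34.5, 37 and 37.9 TPM to 48.8, 49.6 and 45.3 TPM, a log2 fold change of 0.42 (SE 0.0497, adjusted p = 6.95e-11). Fars2, the single-chain phenylalanine enzyme, increased from 51.7, 49.8 and 46.3 TPM to 57.6, 63.3 and 62.7 TPM, a log2 fold change of 0.34 (SE 0.0474, adjusted p = 1.37e-08). Exons of Fars2 overlap on the opposite strand those of Nrn1 over 501 bases and of Lyrm4 over 115 bases, and these genes had log2 fold changes of −2.37 and 0.44.

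Among the mitochondrial genes that fell, Sars2, for serine, went from 11.7, 12 and 12.4 TPM to 9.52, 9.21 and 9.35 TPM, a log2 fold change of −0.45 (SE 0.0932, adjusted p = 2.4e-05). Cars2, for cysteine, had 19.8, 18.7 and 21.9 TPM and 15.7, 14.7 and 14.4 TPM, a log2 fold change of −0.34 (SE 0.0787, adjusted p = 0.000105). The groups did not overlap in either of these, nor in the weaker falls of Lars2 (leucine), with −0.24 (SE 0.0839, adjusted p = 0.00871) on the log2 scale, and Vars2 (valine), with −0.10 (SE 0.0424, adjusted p = 0.0326). Lars2 lost its call without replicate 3 of IL (adjusted p = 0.0808). Vars2 lost it in DESeq2 (adjusted p = 0.0911) and without replicate 1 of IL, replicate 2 of ILN or replicate 3 of ILN (adjusted p = 0.112, 0.0657 and 0.153). The other 7 genes did not pass the test. Mars2 (methionine) had 6.49, 6.54 and 7.38 TPM in IL and 7.34, 7.78 and 7.17 TPM in ILN, a log2 fold change of 0.16 (SE 0.088, adjusted p = 0.0929). Aars2 (alanine) had 6.39, 6.68 and 5.85 TPM and 6.09, 7.3 and 6.05 TPM, a log2 fold change of 0.10 (SE 0.0884, adjusted p = 0.309). The groups overlapped in both genes. Iars2, the most abundant mitochondrial synthetase in IL, had 67, 66.8 and 66.7 TPM in IL and 64.9, 61.9 and 61.1 TPM in ILN. Yars2 (tyrosine), Iars2 (isoleucine), Pars2 (proline), Hars2 (histidine) and Ears2 (glutamate) had log2 fold changes between −0.17 and −0.05, with adjusted p from 0.0662 for Iars2 to 0.476 for Yars2. All 3 ILN libraries were below all 3 IL libraries for Iars2, Pars2 and Hars2. Among all tested genes this held for 41.4%, so such separation does not set the mitochondrial genes apart. Exons of Iars2 share 2034 bases with those of Rab3gap2 on the opposite strand, which had a log2 fold change of 0.51.

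Tarsl2 (Entrez gene 272396) fell, unlike both other threonine genes. It had 24.3, 27 and 26.8 TPM in IL and 17.7, 17.4 and 16.9 TPM in ILN, a log2 fold change of −0.55 (SE 0.0506, adjusted p = 1.99e-14), with no overlap between the groups. Its exons share 120 bases with those of Tm2d3 on the same strand. Among the other members, Cars2, Vars2, Farsb, Cars, Ears2 and Yars share 30 to 465 exon bases with a neighbour on the opposite strand. Whether reads were counted by strand is unknown, so that reads of a member and of such a neighbour cannot be told apart in these stretches.

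Next, the cytosolic and mitochondrial enzymes for the same amino acid were compared within each library, as the log2 ratio of their TPM. There are 18 such pairs over 17 amino acids, since Eprs pairs with both Ears2 and Pars2, and Farsa and Farsb both pair with Fars2. The cytosolic gene had the higher TPM in every pair and library, with mean log2 ratios in IL from 0.78 (Yars over Yars2) to 5.16 (Eprs over Ears2). The ratio was higher in all 3 ILN libraries than in all 3 IL libraries for 16 pairs, lower for Farsa over Fars2, and overlapping for Mars1 over Mars2. Taken singly, 79.4% of all tested genes had TPM groups that did not overlap, with ILN above IL in 38% and below in 41.4%. No such share was computed for ratios of other genes. Two-sided exact permutation tests gave p = 0.1 for 17 pairs, the smallest that 3 against 3 libraries allows, and p = 0.106 after adjustment over the 18 pairs, so this test cannot pass 0.05 in this design.

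The pairs for cysteine, serine and alanine shifted the most. Cars over Cars2 had log2 ratios of 1.01, 1.09 and 0.95 in IL and 3.06, 3.15 and 3.20 in ILN, a difference of 2.12. For Sars over Sars2 the ratios were 2.80, 2.76 and 2.74 against 4.796, 4.82 and 4.75, a difference of 2.02. In both of these pairs the cytosolic gene rose while the mitochondrial one fell. Aars over Aars2 shifted by 1.70, almost entirely through Aars. In the asparagine pair both genes rose, and Nars over Nars2 shifted by 0.83. The pairs Lars over Lars2, Eprs over Pars2, Wars over Wars2, Eprs over Ears2 and Yars over Yars2 shifted by 1.49 to 1.64, and Iars over Iars2 by 1.21. Smaller shifts, from 0.23 to 0.60, were measured for valine, histidine, threonine, arginine and Farsb over Fars2. The ratio of Farsa over Fars2 was 0.79, 0.96 and 0.97 in IL and 0.73, 0.63 and 0.64 in ILN, a difference of −0.24. The methionine pair hardly moved, with ratios of 3.60, 3.66 and 3.55 in IL and 3.61, 3.53 and 3.60 in ILN. The median difference over the 18 pairs was 1.12. Across these pairs, which share libraries and in part genes, the log2 fold changes of the cytosolic and the mitochondrial member had a Pearson r of 0.175 and a Spearman rho of −0.0227, given as a description.

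**Figure D3:**
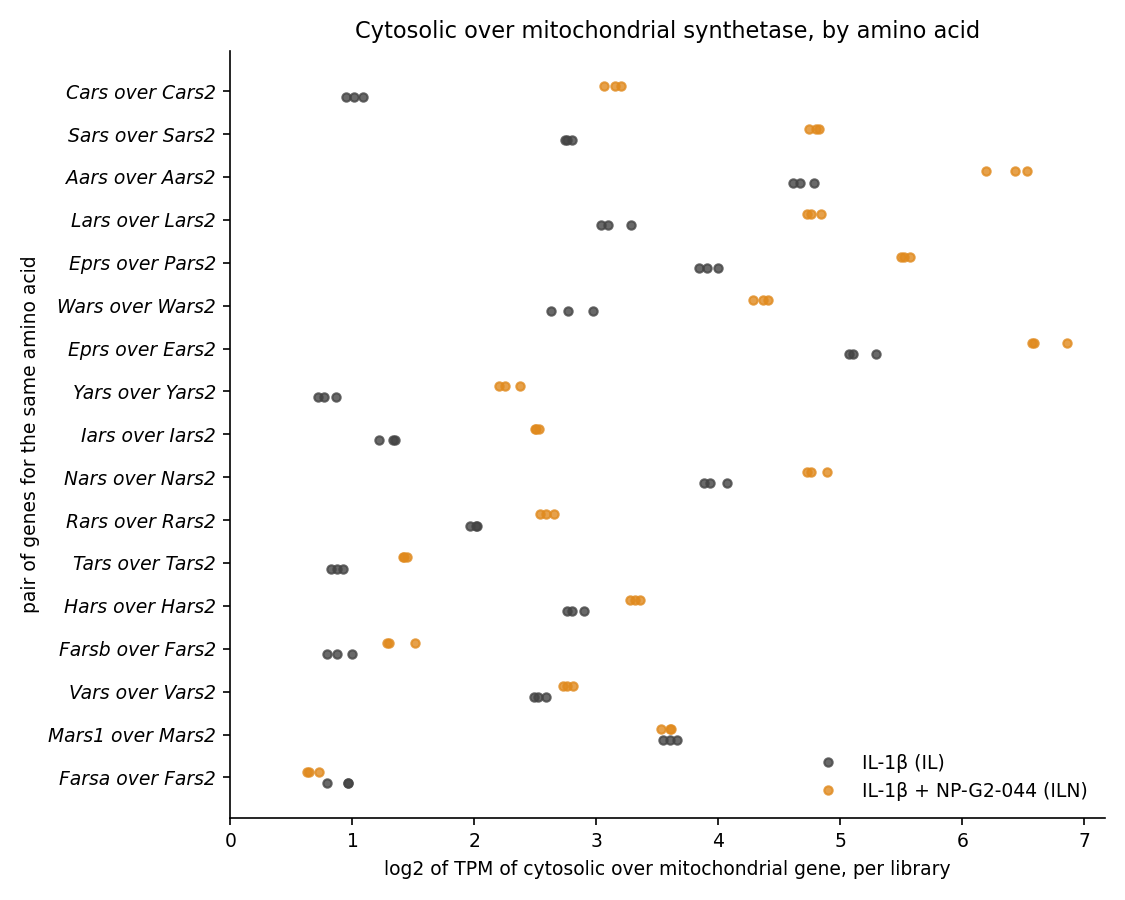
Log2 ratio of the TPM of the cytosolic gene over that of the mitochondrial gene for the same amino acid in 17 pairs, 1 point per library, IL in grey and ILN in orange, with pairs sorted by the difference between group means. ILN points lie to the right of IL points in 15 of the 17 pairs, by up to 2.12 for Cars over Cars2. For single genes, TPM groups did not overlap in 79.4% of all tested genes.

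As a share of the transcript pool, the 20 cytosolic genes summed to 2357, 2421 and 2398 TPM in the IL libraries and 4731, 4683 and 4585 TPM in the ILN libraries, 1.95 times as much on average. The 17 mitochondrial genes summed to 364, 369 and 369 TPM and 391, 396 and 381 TPM, 1.06 times as much. Cytosolic genes accounted for 86.7% ± 0.0875 of both sums together in IL and 92.3% ± 0.0865 in ILN (SD, n = 3 each), a difference of 5.61 percentage points (two-sided exact permutation test, p = 0.1, the smallest possible). A few abundant genes weigh most in such sums, among them Gars, Aars, Iars, Eprs and Kars in ILN.

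Most genes for proteins that work with cytosolic synthetases rose as well, with a smaller median change. Of 9 genes for scaffolds, proofreading and tRNA handling, 7 rose, 0 fell and 2 did not pass the test, where 40.2% of all tested genes rose and 39.8% fell, with a median log2 fold change of 0.43. Xpot, which exports tRNAs from the nucleus, was the only one past both cutoffs, at 61.2, 65.2 and 64.4 TPM in IL and 132, 128 and 129 TPM in ILN, a log2 fold change of 1.07 (SE 0.0284, adjusted p = 4.81e-37). The 3 scaffold proteins of the multisynthetase complex differed. Eef1e1 rose by 0.69 (SE 0.0415, adjusted p = 1.14e-18) on the log2 scale, Aimp1 by 0.43 (SE 0.0389, adjusted p = 1e-14) and Aimp2 by 0.11 (SE 0.0404, adjusted p = 0.0116), the last with overlapping groups. Trnt1, which adds the CCA end to tRNAs, rose by 0.53 (SE 0.0377, adjusted p = 2.81e-18), Prorsd1 by 0.45 (SE 0.129, adjusted p = 0.00151) and Dtd1, which removes D-amino acids from tRNAs, by 0.30 (SE 0.0746, adjusted p = 0.000297). Aarsd1 and Dtd2 had log2 fold changes of 0.10 (SE 0.0544, adjusted p = 0.0935) and 0.03 (SE 0.082, adjusted p = 0.707).

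On the mitochondrial side, 13 genes for tRNA charging, tRNA modification and translation factors gave 6 higher, 4 lower and 3 that did not pass the test, with a median of 0.07 and none past both cutoffs. These counts lie near the 40.2% higher and 39.8% lower among all tested genes. Mitochondria make glutaminyl-tRNA by an indirect route, in which Ears2 first loads glutamate and an amidotransferase of 3 subunits converts it. The genes of its subunits went in different directions. Qrsl1 rose from 14.9, 13 and 13.2 TPM to 19.5, 19.8 and 19.5 TPM, a log2 fold change of 0.55 (SE 0.0749, adjusted p = 4.41e-09), and Gatc by 0.42 (SE 0.0519, adjusted p = 3.89e-10) on the log2 scale. Gatb fell from 15.3, 12.9 and 15.6 TPM to 11, 11.4 and 9.84 TPM, a log2 fold change of −0.44 (SE 0.0819, adjusted p = 4.96e-06). Mtfmt, which formylates initiator methionyl-tRNA, rose by 0.40 (SE 0.0651, adjusted p = 2.07e-07). The elongation factor gene Tufm, whose product carries charged tRNAs to the mitochondrial ribosome, fell by 0.54 on the log2 scale, from 131 ± 5.13 to 88 ± 3.52 TPM (SD, n = 3 each), while its exchange factor Tsfm rose by 0.50 (SE 0.0489, adjusted p = 1.98e-13).

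For reference, a list of 20 genes of the ATF4 programme, which holds no synthetase, had 18 genes higher and 1 lower, with 17 of the 18 past both cutoffs and a median log2 fold change of 2.23. Atf4 itself was at 171, 183 and 175 TPM in IL and 844, 856 and 822 TPM in ILN, a log2 fold change of 2.30 (SE 0.0298, adjusted p = 1.48e-51). Asns, which makes asparagine from aspartate, had 143, 144 and 151 TPM and 627, 624 and 620.0 TPM, a log2 fold change of 2.13 (SE 0.0294, adjusted p = 3.6e-50). Ddit4 fell, with −0.48 (SE 0.0604, adjusted p = 5.7e-05), and Cebpb did not pass the test. This list was written with earlier results of these libraries known, the rise of Trib3 among them, so its direction is not independent evidence. Ribosomal protein genes had smaller median changes than cytosolic synthetases. Beside the 40.2% of all tested genes called higher and 39.8% called lower, and the 6.48% and 10.1% past both cutoffs, they gave the following counts. Among 79 cytosolic ribosomal protein genes tested, 45 rose and 13 fell, with a median of 0.12 and 0 past both cutoffs. Among 78 mitochondrial ribosomal protein genes, 39 rose and 20 fell, with a median of 0.10 and 1 past both cutoffs. The values of these lists are set side by side without a test of their difference.

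**Figure D4:**
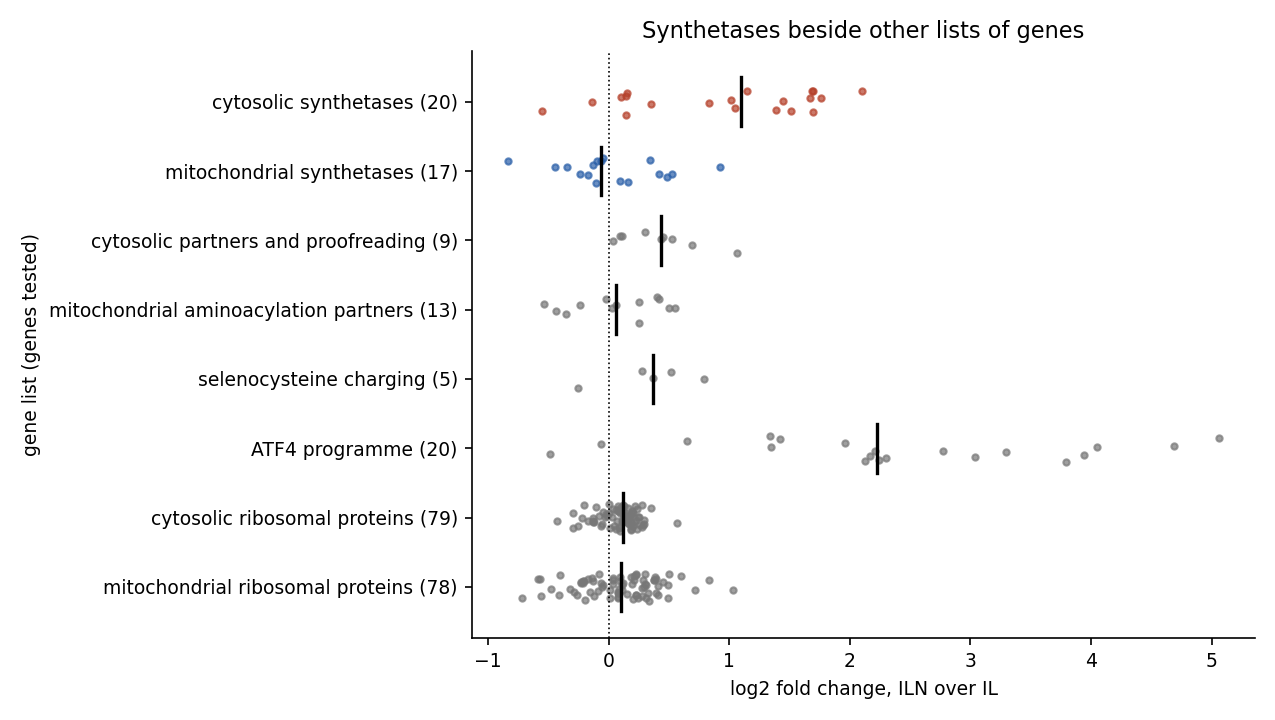
Log2 fold change of ILN over IL for each tested gene of the synthetases and 6 other lists, spread vertically for visibility, with a black line at each list's median and a dotted line at the median of all tested genes. Cytosolic synthetases have a median of 1.10 and mitochondrial ones of −0.06, beside 2.23 for the ATF4 programme and 0.12 and 0.10 for the 2 ribosomal lists.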

How the data were processed

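Libraries were made with a TruSeq RNA kit per the labels, and BGI sequenced and quantified them. The submitters' processing notes name cutadapt, HISAT2 2.0, StringTie and mm10. The counting tool, annotation and use of strand were not given in the sources used here. The authors deposited expected counts per gene and library, of which 10.2% to 11.1% were not whole, and TPM and FPKM values normalized within each library. The authors' group means were not used. Conditions and replicate numbers came from the titles.

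Counts were rounded, filtered with filterByExpr (minimum count 10), normalized with TMM and tested by quasi-likelihood in edgeR 4.0.16 and R 4.3.3, 3 ILN against 3 IL libraries without covariates, with Benjamini-Hochberg adjustment over 11983 genes. A called gene has an adjusted p below 0.05. Both cutoffs add a log2 fold change above 1 in size, as the study states. SE is the size of the log2 fold change over the square root of F. The steps were also run on simulated counts to check the code. Far fewer genes were changed there than were called here, so the simulation does not bear on these calls. Per-library values are the deposited TPM. Alternatives used DESeq2 1.42.0 and limma 3.58.1. Exon overlaps came from GENCODE vM21.

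The members, the gene lists and the rule for named genes were chosen with earlier results of these data known. By that rule every member is named but 1, which is not reported here, as is 1 promoter stretch. Counts and medians cover all members. Values are given in each library for members past both cutoffs, against the trend of their compartment, or most abundant. Sars2, Cars2, Farsb, Farsa, Hars, Dars, Mars1, Vars, Iars2 and Tarsl2 were added to these after their values were seen, and other genes are examples from the lists.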

Additional observations from a re-analysis of the deposited data

How the results depend on the processing

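With another normalization, filter or test, most synthetase calls were kept. All 38 genes kept direction and call with library size alone, limma-voom and no filter. Under the other settings, the test against a fold of 2 apart, changes concerned Farsa, Lars2, Vars2, Ears2, Hars2, Iars2, Mars2 and Yars2, all with small fold changes. The median of cytosolic genes was 1.07 with at least 10 CPM in 3 libraries, 1.07 on log2(TPM + 0.1) and 1.06 on log2(TPM + 1), against 1.10. With the 10 CPM filter 8 mitochondrial genes were lower, not 5, and their median was −0.0910. With each library left out that median ran from −0.0911 to −0.0489. The log2 fold change of Yars2 ran from −0.0911 to 0.0146, reversed without replicate 3 of ILN. The difference in log2 ratio of Mars1 over Mars2, −0.02, ran from −0.0503 and turned to 0.00506 without replicate 2 of IL and 0.00225 without replicate 2 of ILN. Rars missed the fold cutoff on log2(TPM + 1) with 0.98, on log2(TPM + 0.1) with 0.99 and under the 10 CPM filter with 0.99.

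In the edgeR test against a fold of 2, which 4.71% of all genes pass upward and 7.59% downward, 10 cytosolic genes were higher and 0 lower, Rars (adjusted p = 0.687) and Tars (adjusted p = 0.133) being lost from the 12. That test called 0 mitochondrial synthetases in either direction, 1 cytosolic partner (higher), 0 mitochondrial partners and 0 selenocysteine genes in either direction, and 0 ATF4 genes lower. Without Gars and Kars, 1 cytosolic gene was lower. With the replicate number as a block, 18 cytosolic genes were higher and 2 lower, 12 past both cutoffs, and 5 mitochondrial genes were higher and 5 lower, so that no synthetase call changed. No sign of pairing by number was seen. Deviations from the group means correlated by −0.0934, −0.0236 and 0.0259 between libraries of the same number, and 0 of 3 IL libraries correlated best with their own number. With so few libraries, such correlations cannot show that the libraries were unpaired. FPKM or CPM in place of TPM gave a rise of the cytosolic share of 5.61 to 5.98 percentage points.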

Other observations

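Selenocysteine is made on its tRNA after Sars has loaded serine, and the 5 genes listed for this route gave 4 higher in ILN and 1 lower. None of these changes reached the fold cutoff. Their median on the log2 scale was 0.37. Pstk, which phosphorylates the serine, had 11.4, 9.36 and 11.2 TPM in IL and 18, 18.2 and 18.3 TPM in ILN, a log2 fold change of 0.79 (SE 0.107, adjusted p = 2.67e-09) in edgeR's test. Sepsecs, which converts it to selenocysteine, went from 8.78, 8.91 and 9.91 TPM to 12.5, 12.5 and 13.3 TPM, a log2 fold change of 0.52 (SE 0.0556, adjusted p = 4.72e-12). Sephs2, the enzyme that makes the selenium donor, fell from 27.1, 25.5 and 25.7 TPM to 20.8, 20.8 and 22.7 TPM, with −0.25 (SE 0.0597, adjusted p = 0.000144). The elongation factor gene Eefsec rose by 0.28 (SE 0.0452, adjusted p = 2.98e-07) and Secisbp2 by 0.37 (SE 0.0461, adjusted p = 4.01e-10) on the log2 scale. The groups did not overlap for any of the 5 genes, as for 79.4% of all tested genes, and 80% of all tested genes were called in one direction or the other, so these counts do not set the 5 genes apart.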
